A study of Mus musculus with 9 samples.

Results

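The genes described here are 32 genes of cholesterol synthesis, sterol sensing, uptake, transport and removal, chosen by gene symbol. Each of the 32 symbols matched 1 of the 46078 genes in the count table. Whole-ovary mRNA was sequenced from 5 WT mice and 4 mice without estrogen receptor β (ERβKO), all on the C57BL/6J background. In ERβKO mice, a loxP-flanked Esr2 allele was recombined by a Rosa26-Cre deleter, which acts in all tissues and the germ line, and an exon was lost with a frameshift. The WT controls carried no Cre. All 9 ovaries are labelled as untreated, although the protocol attached to them also describes a high-fat or matched diet and injections of the ERβ agonist DPN or of vehicle. Neither the diet nor the age of each mouse is given in the sources used here. Ovaries were taken without regard to the stage of the estrous cycle.

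Cholesterol is built from acetyl-CoA in a chain of enzymes. The mevalonate arm makes the isoprenoid farnesyl diphosphate, and the sterol arm joins farnesyl units into squalene, closes the rings and trims the product to cholesterol. The membrane-bound factors SREBP1 and SREBP2 are held in the endoplasmic reticulum by INSIG proteins when sterols are plentiful. When sterols run low, SCAP carries them to the Golgi, where 2 proteases release the part that turns on the enzymes of the chain and the receptors for lipoproteins. In the ovary, theca, granulosa and above all luteal cells turn cholesterol into steroid hormones, and rodent luteal cells take much of it from high-density lipoprotein through the receptor SR-BI.

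The libraries held 12353740 to 18717510 counts. Esr2 reached 12.4 to 23.9 FPKM (fragments per kilobase of transcript, scaled to library size) in WT and 10.5 to 23.7 FPKM in ERβKO, with an adjusted p of 0.966 for the genotypes in edgeR (quasi-likelihood F test). Its value is over the whole gene and so does not check the deletion of an exon. Of 9 lists of cell type markers, edgeR called members of the granulosa list only (Inhbb and Hsd17b1, both higher in ERβKO), and DESeq2 called 4 of 10 granulosa, 2 of 9 luteal and 3 of 8 adipocyte markers and none of the theca, stroma, endothelium, macrophage, oocyte or surface and oviduct epithelium markers. At an unadjusted p under 0.05, which 10.0% of all genes tested met with lower and 9.81% with higher levels in ERβKO, edgeR gave 8 of 8 adipocyte and 4 of 10 granulosa markers, all higher, and 4 of 9 luteal markers, all lower. It gave 1 of 4 tested theca, 1 of 6 stroma and 1 of 6 endothelium markers and 0 of the 8 macrophage, 7 oocyte and 6 epithelium markers. All luteal and adipocyte markers were detected in every ovary.

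Between genotypes, the genes of the synthesis chain had lower fitted levels in ERβKO, led by Hmgcs1, Dhcr7, Mvd, Fdps and Idi1, and few of these differences passed a test. A call required an adjusted p below 0.05, a log2 fold change (log2FC) beyond 0.4 in either direction and a mean of more than 1 FPKM in a genotype. With edgeR, 0 of the 32 genes were called, against 287 of 16722 genes tested (1.72%). At an unadjusted p under 0.05 in that fit, 10 of the 32 were lower in ERβKO, against 10.0% of all genes tested, and 2 were higher, against 9.81%. With DESeq2, 3 of the 32 were called, against 4.66% of the genes it tested: Hmgcs1 and Fdps fell, and Cyp27a1 rose. The FPKM values of the genotypes did not overlap for 1 of the 32, Cyp27a1, against 7.61% of all genes tested.

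The fitted log2FC was below 0 for 16 of the 17 synthesis enzymes, with a median of -0.78, against a median of -0.001 over all genes tested. A log2FC under -0.4 was found for 10 of the 17 enzymes and 14 of all 32 genes, against 7.74% of all genes tested. The mevalonate arm had a median log2FC of -1.05 over 7 genes, and the sterol arm of -0.41 over 10 genes. Without WT 5, these medians were -0.62 and -0.25, and the median of all 32 genes was -0.15 in place of -0.33. The sterol sensing genes had a median of 0.06 over 7 genes, and the genes of transport, storage and removal of 0.04 over 8 genes, the latter with a sign that turned in 7 of 20 alternatives. In the plot of fold changes, values below -0.4 lie in the synthesis chain and in Insig1, Stard4, Scarb1 and Npc2.

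**Figure D1:**
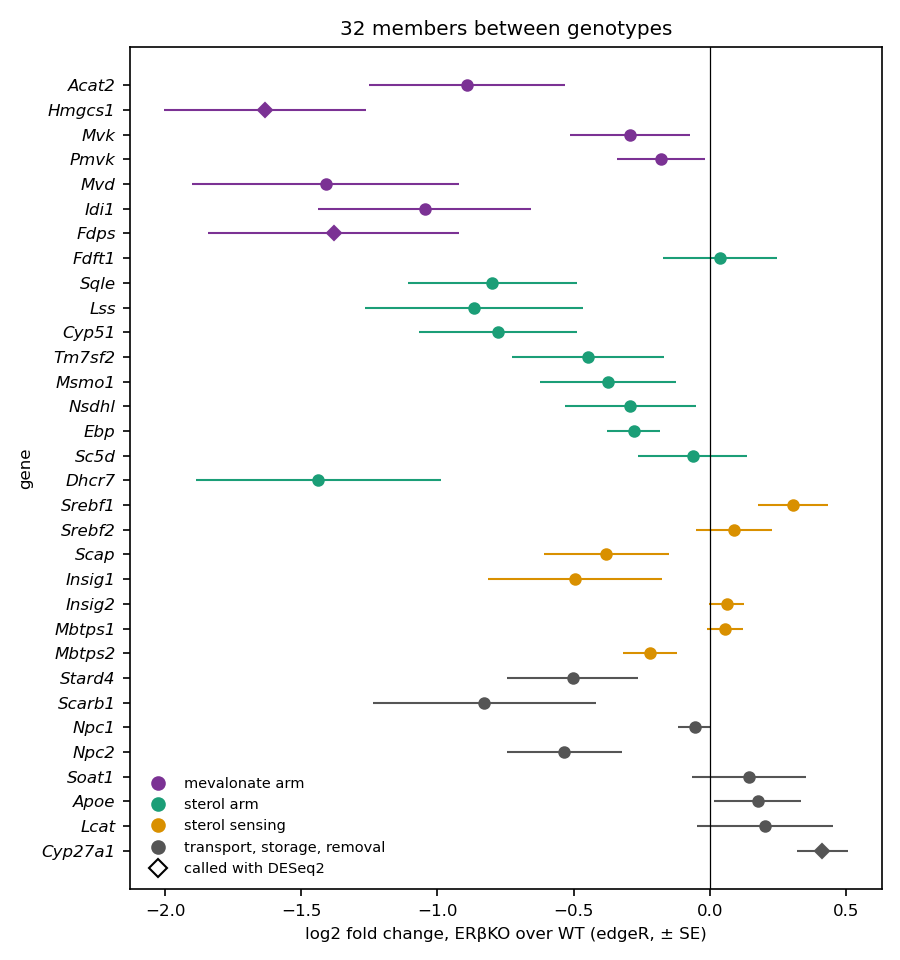
Log2 fold change of each of the 32 genes in ERβKO over WT from edgeR, with its standard error as a bar, colored by role, and with diamonds for the 3 genes called with DESeq2. Genes of the mevalonate arm reach -1.63, and Cyp27a1 lies highest at 0.41.

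The difference rested on some of the WT ovaries. WT 5 was above the highest ERβKO ovary in 17 of the 17 enzymes, WT 1 in 13, WT 4 in 12, WT 3 in 5 and WT 2 in 2. Over all genes tested, a WT ovary was above the ERβKO range in 21.3% to 24.9% of genes. The median ratio of the 17 enzymes to the ERβKO mean was 2.92 in WT 5, 1.73 in WT 4, 1.61 in WT 1, 0.997 in WT 3 and 0.897 in WT 2. WT 5 was the highest of all 9 ovaries for 15 of the 17 enzymes, against 11.4% of all genes tested. The ERβKO ovaries lay close together: the median SD of log2 CPM (log2 of counts scaled to library size) was 0.249 in ERβKO and 0.632 in WT for the enzymes, against 0.163 and 0.202 for all genes tested. The SD was larger in WT for 16 of the 17 enzymes and for 63.2% of all genes; this difference in spread was not tested.

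WT 4 and WT 5 carry library numbers above 200 in the labels, while the other 3 WT and all 4 ERβKO libraries carry numbers below it. What the number stands for is not stated, and it cannot be told apart from genotype in those 2 libraries. Without them, the median log2FC of the 17 enzymes was -0.27, with 14 of 17 below 0, that of the mevalonate arm was -0.39, that of the sterol arm -0.075 and that of all 32 genes -0.061, and 0 of the 32 genes were called. Without WT 2, edgeR called 6 of the 32: Hmgcs1, Mvd, Fdps, Dhcr7 and Npc2 lower and Cyp27a1 higher in ERβKO.

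**Figure D2:**
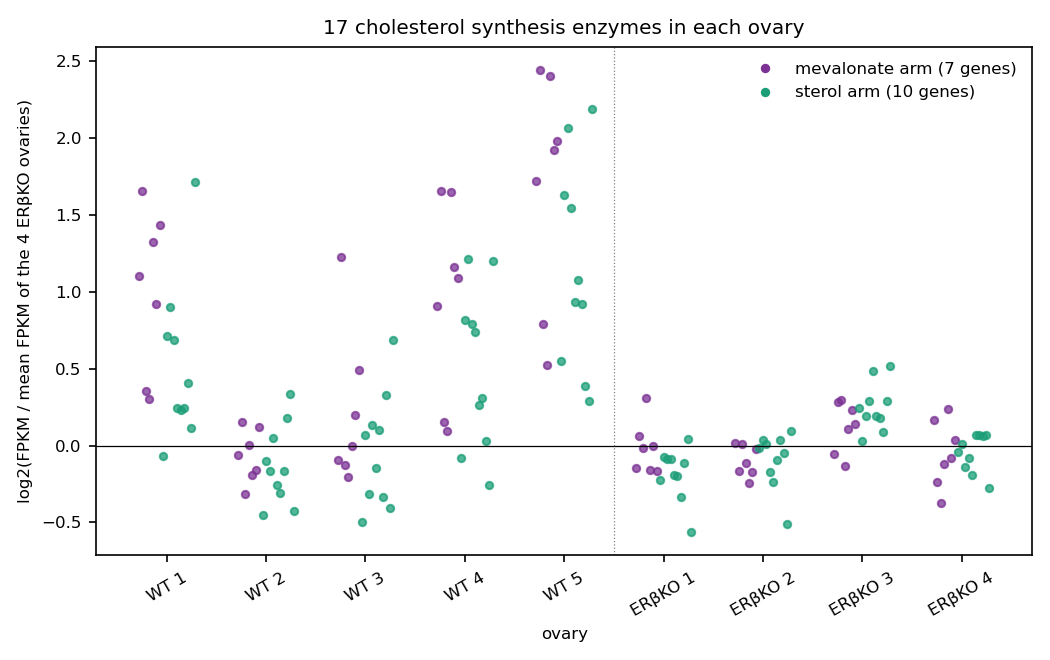
FPKM of each of the 17 synthesis enzymes in each ovary, as log2 of the ratio to the mean of the 4 ERβKO ovaries, with 1 point per gene. WT 5, WT 4 and WT 1 lie mostly above 0. WT 2 lies within the ERβKO range for 10 of the 17 enzymes, above it for 2 and below it for 5. WT 3 lies within it for 9, above it for 5 and below it for 3.

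Hmgcs1 makes HMG-CoA, the substrate of the step that controls the pathway, and was the most abundant enzyme of the mevalonate arm. It reached 138, 48.9, 103, 139 and 239 FPKM in WT 1 to 5 and 45.8, 39.2, 53.6 and 37.3 FPKM in ERβKO 1 to 4. Only WT 2 lay inside the ERβKO range, and the other 4 WT ovaries were above all ERβKO ovaries. The log2FC was -1.63 ± 0.37 (SE), 3.10-fold lower in ERβKO, with an adjusted p of 0.0522 in edgeR and 0.00297 in DESeq2. In edgeR it was also called without the filter on low counts (adjusted p = 0.0275) and without WT 2 (adjusted p = 0.00682), and in the other 17 of 20 alternatives it was not, with an adjusted p of up to 0.387.

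The bases before the annotated starts are shown for Hmgcs1 and for Acat2, the acetoacetyl-CoA thiolase of the first step, because, among the 26 of the 32 genes that had a promoter window, theirs alone hold the core of the sterol regulatory element, CACCCCAC, to which SREBP factors bind. The core is in capitals, preceded in Hmgcs1 by the T of the longer form TCACNCCAC. The sequences are from RefSeq on build GRCm38.p6, 5′ to 3′ along the gene, at chr13:119690101-119690350 on the plus strand for Hmgcs1 and chr17:12960748-12960975 on the minus strand for Acat2.
Hmgcs1: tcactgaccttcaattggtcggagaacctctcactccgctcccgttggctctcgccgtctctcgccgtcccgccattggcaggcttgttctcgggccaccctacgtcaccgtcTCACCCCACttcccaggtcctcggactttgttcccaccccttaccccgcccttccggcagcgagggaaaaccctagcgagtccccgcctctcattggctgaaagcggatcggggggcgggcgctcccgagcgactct
Acat2: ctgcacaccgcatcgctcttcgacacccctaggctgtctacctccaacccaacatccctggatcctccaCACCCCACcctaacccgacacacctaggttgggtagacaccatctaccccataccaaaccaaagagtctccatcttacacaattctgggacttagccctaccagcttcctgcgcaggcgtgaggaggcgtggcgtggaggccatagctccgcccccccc

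Fdps makes farnesyl diphosphate, the end product of the mevalonate arm. It reached 104, 41.6, 54.0, 81.6 and 151 FPKM in WT 1 to 5 and 34.2, 37.7, 42.4 and 39.3 FPKM in ERβKO 1 to 4. WT 2 lay inside the ERβKO range and the other WT ovaries above it. The log2FC of the counts was -1.38 ± 0.46 (SE), with an adjusted p of 0.135 in edgeR and 0.0258 in DESeq2. This gene had 36 to 236 counts per library, so that counts and FPKM together imply a length only 0.022 of its exon length, and 26.7% of its exon bases also belong to Gm43738 on the same strand. The counts behind its test are therefore uncertain.

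Mvk, which phosphorylates mevalonate, had the lowest mean level of the mevalonate arm over the 9 ovaries, although Mvd was lower in the ERβKO mean (4.07 against 6.22 FPKM). Its levels were 7.96, 5.01, 5.71, 6.90 and 10.8 FPKM in WT and 6.16, 6.25, 7.65 and 4.80 FPKM in ERβKO. The genotypes overlapped, and its log2FC of -0.29 ± 0.22 (SE) did not pass the edgeR test (adjusted p = 0.496). Of the other enzymes of this arm, Mvd, the decarboxylase, ranged from 3.56 to 21.5 FPKM in WT and from 3.44 to 4.80 FPKM in ERβKO, and Idi1, the isomerase, from 7.84 to 33.1 FPKM and from 7.74 to 10.2 FPKM. Acat2 ranged from 7.22 to 25.4 FPKM in WT and from 6.97 to 8.63 FPKM in ERβKO. Pmvk, the second kinase, varied least of the arm in WT, from 11.1 to 18.4 FPKM in WT and from 11.7 to 15.8 FPKM in ERβKO. In edgeR, Mvd, Idi1 and Acat2 had log2FC of -1.41, -1.05 and -0.89, with adjusted p of 0.154, 0.182 and 0.214.

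In the sterol arm, Msmo1, which removes methyl groups from the ring system, had the highest mean level and Tm7sf2, a reductase of the ring double bond, the lowest. Msmo1 reached 52.4, 36.1, 48.0, 53.5 and 94.0 FPKM in WT and 38.9, 41.9, 51.0 and 46.9 FPKM in ERβKO. WT 5 stood above all others and WT 2 below all others. Tm7sf2 reached 6.18, 4.38, 4.71, 8.71 and 9.98 FPKM in WT and 4.57, 4.42, 7.32 and 4.58 FPKM in ERβKO, where ERβKO 3 was apart from the other 3. Neither passed the edgeR test, with log2FC of -0.37 ± 0.25 (SE, adjusted p = 0.431) and -0.45 ± 0.28 (SE, adjusted p = 0.401). Of the exon bases of Tm7sf2, 12.1% are shared with Vps51 on the same strand.

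Among the other sterol arm enzymes, the widest range was that of Dhcr7, the last reductase of a branch to cholesterol, with 10.4 to 63.6 FPKM in WT and 9.46 to 19.98 FPKM in ERβKO, and a log2FC of -1.44 ± 0.45 (SE, adjusted p = 0.118 in edgeR). Sqle, the epoxidase that starts ring formation, ranged from 11.8 to 39.4 FPKM in WT and stayed between 12.1 and 13.0 FPKM in ERβKO. Lss, which closes the rings, ranged from 4.74 to 24.7 FPKM in WT and from 5.37 to 6.75 FPKM in ERβKO. Cyp51, the lanosterol demethylase, ranged from 11.9 to 33.7 FPKM in WT and from 10.2 to 14.1 FPKM in ERβKO. Sqle, Lss and Cyp51 had log2FC of -0.80, -0.87 and -0.78 and adjusted p of 0.198, 0.267 and 0.183 in edgeR.

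The remaining 4 varied less or did not separate at all. Nsdhl, a decarboxylating dehydrogenase, ranged from 12.0 to 28.6 FPKM in WT and from 12.0 to 17.2 FPKM in ERβKO. Ebp, an isomerase, was the most even of the enzymes over all 9 ovaries, from 13.9 to 18.1 FPKM and from 12.6 to 14.5 FPKM, with a log2FC of -0.28 ± 0.098 (SE, adjusted p = 0.155 in edgeR). Fdft1, the squalene synthase at the branch into sterols, ranged from 22.3 to 45.9 FPKM and from 26.9 to 37.2 FPKM, and was the single enzyme with a log2FC above 0 (0.04), which ran from -0.062 to 0.255 with an ovary left out. Its exons overlap those of Ctsb on the opposite strand, and whether the counting used strand is not given. Sc5d, a desaturase, ranged from 27.5 to 46.0 FPKM and from 25.5 to 44.5 FPKM, and WT 5 was not its highest ovary. Its log2FC of -0.063 ran from -0.18 to 0.084 with an ovary left out.

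The stretch before the first of 3 annotated starts of Dhcr7 is shown because, among the windows of the 26 genes searched, it alone holds the NR5A element CAAGGTCA (in capitals), to which LRH-1 and SF-1 bind. It lies at chr7:143822917-143823144 on the plus strand of GRCm38.p6.
Dhcr7: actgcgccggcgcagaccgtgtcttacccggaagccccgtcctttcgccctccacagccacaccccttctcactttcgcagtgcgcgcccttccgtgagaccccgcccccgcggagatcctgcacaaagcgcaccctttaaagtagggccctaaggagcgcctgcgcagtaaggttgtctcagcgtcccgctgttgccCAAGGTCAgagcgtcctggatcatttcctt

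The 7 genes of sterol sensing had no common direction, with a log2FC below 0 for 3 and above 0 for 4. Srebf2, which encodes the main activator of the synthesis genes, reached 13.4, 12.6, 11.7, 12.5 and 16.9 FPKM in WT and 12.5, 14.3, 16.8 and 14.5 FPKM in ERβKO. The genotypes overlapped, with a log2FC of 0.09 ± 0.14 (SE, adjusted p = 0.76 in edgeR). Srebf1, whose product drives fatty acid synthesis as well, ranged from 8.48 to 12.0 FPKM in WT and from 10.8 to 15.7 FPKM in ERβKO and had a log2FC of 0.31 ± 0.13 (SE, adjusted p = 0.227 in edgeR).

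Insig1, the retention protein that is itself a target of SREBP factors, followed the enzymes more closely. It reached 17.5, 12.0, 14.9, 27.9 and 42.3 FPKM in WT and 18.2, 13.5, 17.1 and 17.4 FPKM in ERβKO. WT 4 and WT 5 stood above all other ovaries, and the other 3 WT ovaries lay within or below the ERβKO range. The log2FC was -0.50 ± 0.32 (SE, adjusted p = 0.426 in edgeR), and it was 0.15 without WT 4 and WT 5. Its upstream bases are shown with the E-box CACGTG in capitals, at chr5:28071162-28071362 on the plus strand.
Insig1: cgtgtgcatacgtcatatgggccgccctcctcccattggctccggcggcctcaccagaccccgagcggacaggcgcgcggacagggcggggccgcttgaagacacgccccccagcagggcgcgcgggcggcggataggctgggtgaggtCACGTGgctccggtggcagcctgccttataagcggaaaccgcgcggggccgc

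Insig2, the other retention protein, was among the most even genes of the set, at 10.7 to 12.3 FPKM in WT and 11.1 to 12.4 FPKM in ERβKO. Scap, the escort of the SREBP factors, ranged from 25.0 to 64.7 FPKM in WT and from 30.5 to 35.1 FPKM in ERβKO. Mbtps1 and Mbtps2 encode the proteases that cut them, and had the highest and the lowest mean level of the sensing genes over the 9 ovaries, although Scap was above Mbtps1 in the WT mean (41.2 against 39.4 FPKM). Mbtps1 reached 41.8, 38.1, 39.5, 39.0 and 38.6 FPKM in WT and 39.8, 42.8, 38.8 and 47.0 FPKM in ERβKO. Mbtps2 reached 7.97, 6.55, 7.45, 5.81 and 9.16 FPKM in WT and 6.87, 6.75, 6.44 and 7.20 FPKM in ERβKO. Both overlapped between genotypes and neither passed the edgeR test (adjusted p = 0.691 and 0.264), and 28.4% of the exon bases of Mbtps2 are shared with Yy2 on the same strand.

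Among the genes of uptake and transport, Scarb1, which encodes SR-BI, varied like the enzymes. It reached 311, 105.8, 105.1, 213 and 406 FPKM in WT and 90.7, 137, 174 and 127 FPKM in ERβKO. WT 1, WT 4 and WT 5 were above all ERβKO ovaries, and WT 2 and WT 3 were below 3 of the 4. The log2FC was -0.83 ± 0.41 (SE, adjusted p = 0.294 in edgeR). Npc2, a lysosomal sterol carrier, ranged from 29.0 to 65.0 FPKM in WT and from 29.3 to 36.9 FPKM in ERβKO, with a log2FC of -0.53 ± 0.21 (SE, adjusted p = 0.194 in edgeR), while its membrane partner Npc1 stayed between 11.2 and 13.6 FPKM in all 9 ovaries. Stard4, a cytosolic sterol carrier, ranged from 3.38 to 7.93 FPKM in WT and from 3.07 to 4.77 FPKM in ERβKO. Soat1, which esterifies cholesterol for storage, ranged from 51.7 to 102 FPKM and from 73.7 to 94.0 FPKM.

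Cyp27a1, a mitochondrial sterol hydroxylase that makes an oxysterol, was the only gene of the 32 whose genotypes did not overlap. It reached 7.62, 8.10, 6.83, 7.29 and 7.32 FPKM in WT and 10.3, 9.08, 9.21 and 10.9 FPKM in ERβKO. All 4 ERβKO ovaries were above all 5 WT ovaries. The log2FC was 0.41 ± 0.094 (SE), with an adjusted p of 0.0515 in edgeR and 0.00489 in DESeq2. With each ovary left out in turn, its log2FC lay between 0.35 and 0.46, and over the 20 alternatives, DESeq2 included, its adjusted p ran from 0.00489 to 0.218. The bases before its start are shown as those of the gene with the opposite direction, at chr1:74713285-74713534 on the plus strand. Like those of all genes searched other than Hmgcs1 and Acat2, they hold neither form of the sterol regulatory element. They do hold the NF-Y box CCAAT and the Sp1 box GGGCGG, read on the other strand.
Cyp27a1: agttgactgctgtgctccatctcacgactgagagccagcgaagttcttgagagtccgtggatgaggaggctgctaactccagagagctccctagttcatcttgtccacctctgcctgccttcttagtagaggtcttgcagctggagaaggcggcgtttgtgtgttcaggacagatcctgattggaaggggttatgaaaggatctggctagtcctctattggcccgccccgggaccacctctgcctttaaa

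Apoe, the apolipoprotein that carries cholesterol out of cells and back to receptors, had the highest mean level of the group. It reached 393, 276, 251, 212 and 193 FPKM in WT and 362, 338, 298 and 266 FPKM in ERβKO. WT 1 was the highest and WT 5 the lowest ovary, so the order was unlike that of the enzymes, and the genotypes overlapped (log2FC 0.18 ± 0.16 SE, adjusted p = 0.595 in edgeR). Lcat, which esterifies cholesterol in lipoproteins, had the lowest level. It reached 0.847, 1.25, 0.893, 0.886 and 0.649 FPKM in WT and 1.18, 1.55, 0.689 and 0.984 FPKM in ERβKO. These overlapped as well (log2FC 0.20 ± 0.25 SE, adjusted p = 0.699 in edgeR), with 19 to 63 counts per library.

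**Figure D3:**
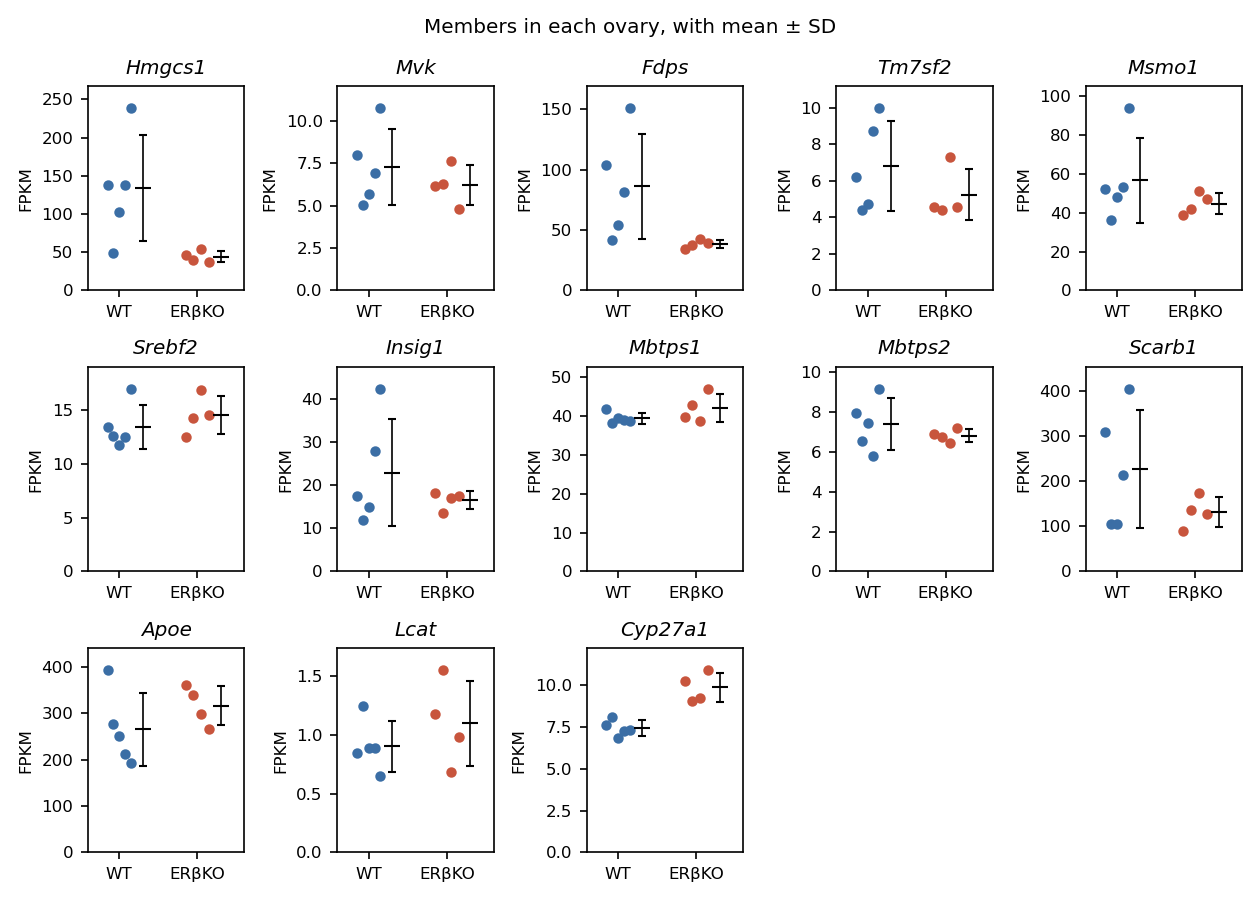
FPKM of the 13 genes given ovary by ovary, with points for WT and ERβKO ovaries from left to right in the order of their replicate numbers, and the mean ± SD beside each group. Only Cyp27a1 has ERβKO points that are all above the WT points, from 9.08 FPKM against at most 8.10 FPKM.

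Promoter windows of 250 bases before the start were found in RefSeq for 26 of the 32 genes, with 36 starts. Fdps, Fdft1, Sqle, Stard4, Scarb1 and Npc1 had no window and were not searched. The core CACCCCAC was in 2 of the 36 windows, against 2.58% of 32851 windows of all genes, and TCACNCCAC in 1, against 1.05%. The NF-Y box CCAAT was in 61.1% of the windows of the set against 33.8% of all windows, and the Sp1 box GGGCGG in 66.7% against 32.7%. CACGTG was in 4 windows, of Sc5d, Insig1, Dhcr7 and Scap, against 6.02% of all, and CAAGGTCA in 1, against 1.33%. The full palindromic estrogen response element was in 0 of the 36 windows and in 0.0639% of all. Both strands were searched, the longer and shorter sterol elements overlap, and a match is a description of letters only. Other variants of these elements, and bases farther from the start, were not searched.

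Other genes of cholesterol handling, 45 listed and 43 tested, gave 3 calls in edgeR, against 1.72% of all genes tested, and 9 in DESeq2, against 4.66%. By list, DESeq2 called 1 of 6 tested genes of other synthesis steps, 3 of 9 lipoprotein receptors and their regulators, 3 of 7 carriers within the cell, 0 of 8 genes of removal and oxysterol response, 0 of 5 of ester storage and 2 of 8 SREBP1 targets of lipid synthesis. At an unadjusted p under 0.05, edgeR gave 8 of the 43 lower in ERβKO and 8 higher, against 10.0% and 9.81% of all genes tested. Of these, 2 receptors were lower and 3 higher, 2 carriers lower and 1 higher, and 1 SREBP1 target lower and 2 higher. A further gene of other synthesis steps and 2 of ester storage were lower, and 2 of removal and oxysterol response were higher. In ester storage, Soat2 met the p and fold change limits in DESeq2 (log2FC -2.66, adjusted p = 0.000518), and its genotypes did not overlap. It was not called because its mean was only 0.922 FPKM in WT and 0.114 FPKM in ERβKO. Its adjusted p in edgeR was 0.0606.

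Lrp8, a receptor for apolipoprotein E and reelin, had the largest difference. It reached 23.8, 3.61, 3.35, 13.4 and 23.1 FPKM in WT and 1.44, 1.04, 2.51 and 1.04 FPKM in ERβKO. The genotypes did not overlap, although WT 2 and WT 3 were again the lowest WT ovaries, and the log2FC was -3.08 ± 0.59 (SE, adjusted p = 0.0317 in edgeR). Lrp11, a relative of the same receptor family, reached 4.57, 4.28, 3.12, 4.81 and 12.4 FPKM in WT and 1.73, 1.29, 2.69 and 1.86 FPKM in ERβKO, without overlap (log2FC -1.63 ± 0.35 SE, adjusted p = 0.046 in edgeR). Osbpl3, an oxysterol-binding protein relative, reached 15.6, 9.91, 14.9, 10.7 and 12.8 FPKM in WT and 9.15, 9.75, 5.80 and 6.59 FPKM in ERβKO, without overlap (log2FC -0.70 ± 0.15 SE, adjusted p = 0.046 in edgeR). In edgeR, all 3 calls were lost when WT 4 and WT 5 were left out, with adjusted p of 0.125 for Lrp8, 0.148 for Lrp11 and 0.142 for Osbpl3, and each was lost in 13 or 14 of the 20 alternatives tried, most of which left out an ovary.

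DESeq2 also called Hsd17b7, whose product reduces a keto group in the sterol arm, and Star, the carrier that brings cholesterol to the inner mitochondrial membrane. Hsd17b7 reached 45.3, 9.08, 7.42, 60.0 and 83.5 FPKM in WT and 4.62, 3.56, 7.07 and 15.6 FPKM in ERβKO. WT 5 was the highest and WT 2 and WT 3 the lowest of the WT ovaries, and the log2FC was -2.48 ± 0.77 (SE), at an adjusted p of 0.118 in edgeR and 0.0369 in DESeq2. Star reached 217, 73.8, 185, 187 and 324 FPKM in WT and 66.5, 34.95, 85.4 and 26.7 FPKM in ERβKO, with WT 2 inside the ERβKO range and a log2FC of -1.91 ± 0.45 (SE), with an adjusted p of 0.0573 in edgeR and 0.00342 in DESeq2. Gramd1b, which moves cholesterol from the plasma membrane to the endoplasmic reticulum, was higher in ERβKO (log2FC 0.42 ± 0.094 SE, adjusted p = 0.0508 in edgeR and 0.00232 in DESeq2). It reached 74.6, 52.0, 51.4, 54.35 and 53.6 FPKM in WT and 72.0, 83.2, 73.3 and 76.1 FPKM in ERβKO, with WT 1 inside the ERβKO range.

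The enzymes varied together from ovary to ovary. With the genotype means removed, the median Pearson correlation of log2 CPM over the 9 ovaries was 0.86 for the 136 pairs of the 17 enzymes, against 0.001 over all pairs of genes tested. A correlation above 0.8 was found in 61.8% of the pairs of enzymes and in 1.37% of all pairs. The median was 0.29 among the sensing genes and 0.06 among the genes of transport, storage and removal. These are descriptions over 9 ovaries, in which both genes of a pair were read from the same libraries, and the libraries differed in depth. The enzyme median was 0.75 without WT 5, the lowest value when each ovary was left out. WT 4 and WT 5, the libraries numbered above 200, had the highest mean enzyme levels, 5.83 and 6.56 log2 CPM, with WT 1 at 5.81. The median SD of the enzymes was 0.632 in WT and 0.249 in ERβKO, so the WT ovaries weighed most in these correlations.

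Against the mean of the other enzymes, Idi1 and Cyp51 had the highest correlations, 0.99 each, and Sc5d and Ebp the lowest, 0.32 and 0.43. Among the other genes, Stard4 (0.95), Scarb1 (0.94), Scap (0.94), Insig1 (0.91), Npc2 (0.90), Soat1 (0.87) and Srebf2 (0.82) ran with the enzymes. Mbtps2 (0.61) lay between these and the rest. Mbtps1 (0.22), Srebf1 (0.25), Npc1 (-0.04) and Cyp27a1 (-0.18) had weak correlations of either sign, and Apoe (-0.35), Insig2 (-0.44) and Lcat (-0.72) were more negative. These correlations were not tested. The matrix of correlations shows the enzyme block together with Scap, Insig1, Stard4, Scarb1, Npc2 and Soat1.

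**Figure D4:**
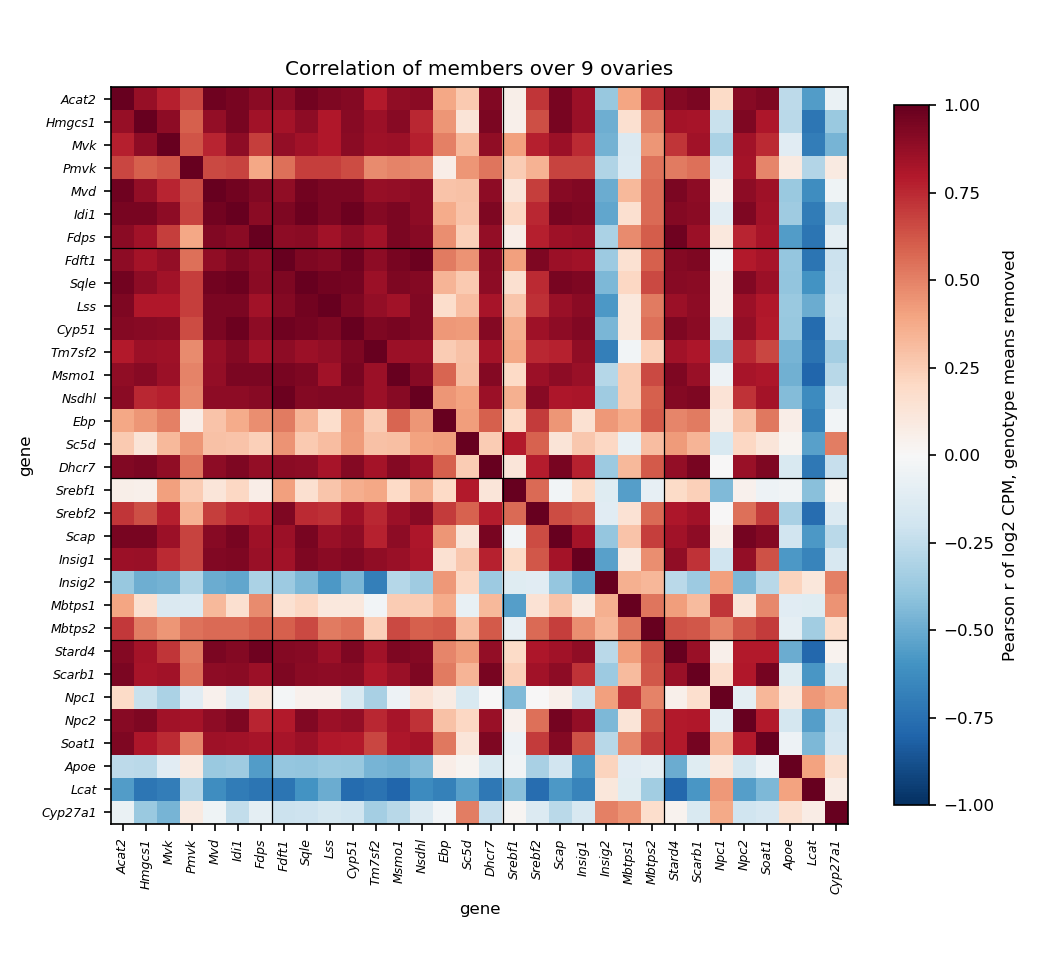
Pearson correlation of log2 CPM between all pairs of the 32 genes over 9 ovaries after the genotype means were removed, with lines between the 4 role groups. The enzymes form a block with a median of 0.86, from which Pmvk, Ebp and Sc5d stand out with weaker values.

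Luteal cells are large consumers of cholesterol, so the genes were set beside 9 luteal markers. These were Akr1c18, Ptgfr, Prlr, Lhcgr, Sfrp4, Hsd3b1, Cyp11a1, Star and Fdx1. Star is also among the other genes of cholesterol handling above. Some of the markers serve steroid synthesis, which is not confined to luteal cells, so their level is not a measure of luteal cells alone. Of the 9 markers, 8 had a log2FC below 0, and 0 were called in edgeR, 2 in DESeq2 (Cyp11a1 and Star) and 4 had an unadjusted p under 0.05. Their summed level was 3117 to 6536 FPKM in WT and 2547 to 4046 FPKM in ERβKO, and none was at 0. The mean log2 CPM of the markers was 9.73, 8.80, 8.60, 8.70 and 9.65 in WT and 7.28, 7.17, 9.49 and 8.18 in ERβKO. In bulk tissue, fewer cells of a type and less RNA per cell cannot be told apart.

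Over the 9 ovaries, the 17 enzymes had a median Pearson r of 0.64 with the luteal mean, against -0.029 over all genes tested. Ebp had the highest, with r = 0.86 (exact permutation p = 0.0038) and Spearman rho = 0.82 (exact permutation p = 0.0108). Cyp51 had r = 0.74 (exact permutation p = 0.0203) and rho = 0.83 (exact permutation p = 0.00827), and Scarb1 had r = 0.73 (exact permutation p = 0.0267) and rho = 0.65 (exact permutation p = 0.0666). Lcat was opposite, with r = -0.76 (exact permutation p = 0.0158) and rho = -0.62 (exact permutation p = 0.0857). An unadjusted p under 0.05 for r was found for 8 of the 32 genes, against 12.4% of all genes tested, and 0 of the 32 passed after adjustment over the 16722 genes tested, the lowest adjusted exact permutation p being 0.307.

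The median r of the enzymes was 0.58 without ERβKO 1 and ERβKO 2, the ovaries farthest from the median luteal level, and 0.55 with the genotype means removed. Without these 2 ovaries, r was 0.67 for Ebp, 0.67 for Cyp51, 0.78 for Scarb1 and -0.56 for Lcat. With the genotype means removed, r was 0.77 for Ebp, 0.595 for Cyp51, 0.65 for Scarb1 and -0.78 for Lcat. The exact permutation p above are for r over both genotypes together, so a genotype difference is part of them. ERβKO 3 had a luteal mean of 9.49 and a mean enzyme level of 5.35 log2 CPM, against 5.81 in WT 1 and 6.56 in WT 5. One marker, Akr1c18, was at 471 FPKM in ERβKO 3 against 1.29 to 19.4 FPKM in the other ERβKO ovaries. Without Akr1c18, the luteal mean of ERβKO 3 was 9.47, against 8.03, 7.79 and 8.57 in ERβKO 1, 2 and 4. The values of all other ovaries rose when this marker was dropped. The average over the WT ovaries was 9.54 in place of 9.10, so ERβKO 3 moved from above to below it. The luteal mean of WT 4 was 9.49 in place of 8.70, and those of WT 1 and WT 5 were 9.95 and 10.2. The median r of the enzymes was then 0.78. With the luteal mean as a covariate in edgeR, the median log2FC of the enzymes was -0.33, with 13 of 17 below 0, and 0 of the 32 genes were called.

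**Figure D5:**
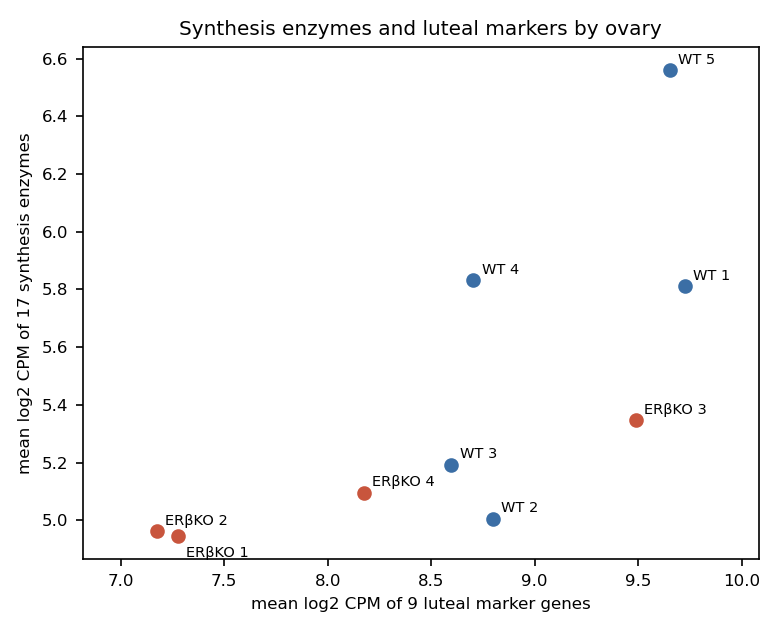
Mean log2 CPM of the 17 synthesis enzymes against that of 9 luteal markers, with 1 point per ovary. The ERβKO ovaries span 7.17 to 9.49 in luteal markers but 4.95 to 5.35 in enzymes, and the WT ovaries span 5.01 to 6.56 in enzymes.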

How the data were processed

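Whole-ovary RNA from 5 WT and 4 ERβKO mice was converted to poly-A selected, strand-marked libraries (TruSeq Stranded mRNA) and sequenced as read pairs. The authors mapped the reads to mm10 (GRCm38) with STAR after trimming with Trim Galore, per the submitters' processing notes, and deposited raw counts per gene from featureCounts. They also deposited FPKM, TPM and coverage per gene from StringTie; the deposited TPM and coverage signal were not used in any test. The versions of these tools and the strand setting of the counting are not given in the sources used here. Counts hold whole fragments that match 1 gene, so genes that share exons lose counts.

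Groups were taken from the sample titles. Raw counts were tested with edgeR 4.0.16 in R 4.3.3 (filterByExpr, TMM, quasi-likelihood F test, no covariates, Benjamini-Hochberg over the 16722 genes tested). The study's tool, DESeq2 (1.42.0 here), was the first alternative, followed by limma 3.58.1 on log2(FPKM + 1) and log2(FPKM + 0.1), other scaling and filters, a replicate block, marker covariates and leaving out libraries. Calls needed an adjusted p below 0.05, a log2 fold change beyond 0.4 in either direction and a mean of more than 1 FPKM in a genotype. FPKM values are printed per ovary without a pseudocount. Correlations used edgeR log2 CPM. The exact permutation p of the luteal relation was adjusted over all genes tested and not over the 32, which differs from the planned design. The tests were tried on simulated counts drawn around the mean level of each gene, with large known changes in well-counted genes. The simulated spread was the same in both genotypes, unlike that of the enzymes, so this trial does not cover them. Depth of 12353740 to 18717510 counts leaves the fewest counts for Lcat (from 19) and Fdps (from 36).

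The 32 genes, the other gene lists and the markers were chosen with earlier results of these data known. Values per ovary are given for genes called with edgeR or DESeq2, genes whose genotypes do not overlap, the highest and lowest gene of each role group, and Srebf2, Insig1, Scarb1 and Apoe, and the other genes are given by their range. Genes of other lists are named where called, and Soat2 is named because only its mean FPKM kept it from a DESeq2 call. The replicates are labelled as biological. Correlations of the deviations of same-numbered ovaries were 0.095, 0.13, -0.043 and -0.011. These gave no sign that the numbers pair the ovaries, but they cannot exclude it.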

Additional observations from a re-analysis of the deposited data

Results flagged for a closer look

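Of 64 sets of values (32 genes in 2 genotypes), 4 held an ovary farther from the others than Dixon's test allows, where chance gives about 1 in 20. All 4 were the highest ERβKO ovary: Pmvk at 15.8 FPKM and Npc2 at 36.9 FPKM in ERβKO 1, and Cyp51 at 14.1 FPKM and Tm7sf2 at 7.32 FPKM in ERβKO 3. No WT ovary was beyond that limit for any of the 32 genes. ERβKO 1 also had the highest adipocyte markers, with a mean of 7.28 log2 CPM against 4.43 to 6.11 in the other ERβKO ovaries, and ERβKO 3 the highest luteal markers of its genotype, with 9.49 against 7.17 to 8.18. Their part in these values was not tested.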

How the results depend on the processing

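The median log2 fold changes of the 4 role groups and of all 32 genes moved by less than 1 SD between ovaries in all 20 alternatives, and yet ran from -1.25 to -0.39 for the mevalonate arm, -0.54 to -0.075 for the sterol arm, -0.005 to 0.116 for sensing, -0.091 to 0.086 for transport, storage and removal, and -0.45 to -0.061 for all 32. The number of genes called over the whole table was 287, and it was 805 with DESeq2, 155 with the replicate block, 51 without the libraries numbered above 200, 40 with luteal and 117 with adipocyte markers as a covariate, and 60 to 912 with a library left out. The number of the 32 called was 0 with edgeR, 3 with DESeq2, 1 with upper-quartile factors (Cyp27a1), 1 without the filter on low counts (Hmgcs1), 1 with limma on log2(FPKM + 0.1) (Cyp27a1) and 0 to 6 with a library left out, the 6 being without WT 2. With the replicate block, 0 of the 32 were called and the median of the enzymes was -0.32. Only WT 5 carries its replicate number, so it added nothing to the genotype difference in that fit. Without WT 5 and without the block, the median of the enzymes was -0.43. The block ended the calls of Lrp8 (adjusted p = 0.0915), Lrp11 (0.0527) and Osbpl3 (0.146) in edgeR. Among genes given by ovary, signs turned for Mvk with luteal markers as a covariate (0.013), Lcat with the same (-0.213), Tm7sf2 (0.017) and Insig1 (0.147) without the libraries numbered above 200, and Srebf2 without ERβKO 3 (-0.005, the lowest of -0.005 to 0.206 with a library left out), all far from the threshold. Fdft1 and Sc5d also changed sign with a library left out. The median correlation between enzymes was 0.75 to 0.90 with a library left out. The median correlation with luteal markers was 0.57 to 0.72 with a library left out, 0.78 without Akr1c18 among the markers, 0.55 centred on genotype and 0.58 without the 2 farthest ovaries; these were chosen after seeing the data. The cause of these changes was not tested. Lcat and Fdps had the fewest counts.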

Other observations

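Of the genes of fatty acid synthesis and uptake, Fasn, Cd36 and Me1 were called with DESeq2 and not with edgeR. Fasn, the fatty acid synthase, reached 19.4, 21.4, 13.6, 19.1 and 22.6 FPKM in WT and 57.9, 32.8, 26.1 and 19.4 FPKM in ERβKO, and Cd36, a fatty acid and lipoprotein receptor, reached 20.1, 24.5, 24.4, 28.9 and 15.4 FPKM in WT and 67.1, 40.9, 41.3 and 22.3 FPKM in ERβKO. In both genes, ERβKO 1 was the highest ovary and ERβKO 4 lay inside the WT range. The log2 fold changes were 0.80 ± 0.27 (SE) for Fasn and 0.91 ± 0.26 (SE) for Cd36, with adjusted p of 0.146 and 0.101 in edgeR and of 0.0471 and 0.0159 in DESeq2. All 8 adipocyte markers had a log2 fold change above 0, with a summed level of 174.9 to 342 FPKM in WT and 191.2 to 1293 FPKM in ERβKO, highest in ERβKO 1. With these markers as a covariate, the log2 fold changes were 0.22 for Fasn and 0.20 for Cd36, and without ERβKO 1 they were 0.42 and 0.62.

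Me1, the malic enzyme that supplies reducing power for lipid synthesis, went the other way. It reached 317, 133, 366, 201.4 and 321 FPKM in WT and 167, 131, 152 and 139 FPKM in ERβKO, with WT 2 inside the ERβKO range and a log2 fold change of -0.89 ± 0.26 (SE, adjusted p = 0.103 in edgeR and 0.0116 in DESeq2). Its highest ovary was WT 3.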
